A study of Mus musculus with 48 samples.

Results

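RNA recovered with an antibody to the FLAG tag was compared between cells that carried a FLAG-tagged form of CNOT7 and cells that carried none. The comparison used every RNA immunoprecipitation (RIP) library of the series, 24 of 48 samples. Of these, 19 came from cells with a FLAG construct and were pooled (FLAG RIP), and 5 came from cells with the empty vector (vector RIP). The other 24 samples are libraries of the lysate from which each precipitate was made (input). All cells were 4T1, an epithelial tumor line from the mouse mammary gland, and all of them kept their own Cnot7 gene. The control cells expressed the 8166-M24-658 control vector. The 4 FLAG forms were the wild-type protein (CNOT7, n = 5), D40A, which lacks deadenylase activity (n = 4, with no replicate 7), E247A/Y260A, which does not bind TOB1 (n = 5), and M141R, which does not bind CNOT1 (n = 5). Per the study's methods the constructs were human cDNAs under a murine Pol2 promoter, delivered by lentivirus to cultures that were selected with blasticidin, and the antibody was M2 in both groups. The samples are numbered from 6 to 10 in each group and the series calls them biological replicates. RIP was native, without crosslinking, so both groups can also hold RNA that adheres to beads or antibody.

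CNOT7 is a catalytic subunit of CCR4-NOT, the main complex that shortens the poly(A) tails of cytoplasmic mRNAs and so starts their decay. CNOT7 itself binds RNA with little sequence preference. CNOT1, the scaffold of the complex, and TOB1, an adaptor, bring it to mRNAs that are held by sequence-specific proteins such as those of the CPEB, Pumilio and Nanos families. An mRNA bound through wild-type CNOT7 should therefore be more frequent in its RIP than in the vector RIP of the same replicate number. This need not hold for E247A/Y260A or M141R where the mRNA depends on the lost contact, and FLAG RIP pools both.

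Few genes passed a test of the difference between FLAG RIP and vector RIP. Of 1139 genes tested, 1 was higher in FLAG RIP (0.0878% of the genes tested) and 0 were lower (0.0%) by edgeR's quasi-likelihood test with the replicate number as a block, at an adjusted p under 0.05. At an unadjusted p under 0.05, 81 genes were higher (7.11%) and 37 were lower (3.25%). DESeq2 with the same block called 1 higher and 0 lower, and 82 and 31 at an unadjusted p. With plain library sizes in place of TMM factors the unadjusted split was 167 higher to 9 lower, and the median log2 fold change of all genes moved from 0.02 to 0.16. Without the replicate 9 libraries (15 FLAG RIP and 4 vector RIP), 0 of 1074 genes were higher and 0 were lower (0.0% each). At an unadjusted p, 44 were then higher (4.1%) and 30 lower (2.79%), and DESeq2 gave 28 and 24. No tested gene had FLAG RIP and vector RIP values, in CPM (counts scaled to library size and TMM factor), that did not overlap (0 of 1139 in either direction, 0.0%). The FLAG RIP mean was above the vector RIP value in 5 of 5 replicate numbers for 40 genes (3.51%) and below it in 5 of 5 for 44 (3.86%). Of all genes tested, 54.3% had a log2 fold change above 0, and 54.2% without replicate 9.

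The gene that passed the test was Gm10717 (ENSMUSG00000095891), a predicted gene at the start of chromosome 9 (GRCm38 coordinates chr9:3025417-3033289, plus strand). It is 1 of 10 overlapping or neighbouring models annotated between bases 3000282 and 3038316, a region that holds copies of a satellite repeat of the kind that packs mouse pericentromeres. Gm26870, a noncoding model, spans the set on the opposite strand. The 10 models are largely copies of each other. Between 54.3% and 94.1% of the distinct 30-base words of a model's transcripts occurred in another model of the set. A 30-base run common to Gm10717, Gm10719, Gm11168 and, on chromosome 14, Gm21738 is shown here because it is the sequence unit that the leading genes of the comparison share. It is read from the GENCODE M21 transcripts, 5′ to 3′ on the transcript strand, with capitals for bases that all 4 hold; Gm26870 holds its reverse complement.
Shared run: AAGTGGATGTTTCTCATTTTCCATGATTTT
Of 55450 annotated genes, 12 held this run on either strand, 9 of them among the 10 models of chromosome 9 and the others Gm21738, Gm10800 and Gm10801. A read from sequence that these copies share does not identify its model, and how such reads were assigned was not examined. The counts of single models are therefore uncertain, and the sum over the 10 is given below.

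In vector RIP, Gm10717 was at 0.290, 5.80, 1.56, 27.2 and 5.45 CPM in replicates 6 to 10, from 1, 21, 4, 55 and 12 counts. In FLAG RIP it ranged from 0.646 to 123 CPM with a median of 7.38. The groups therefore overlapped across replicate numbers, and replicate 9 was the highest in both. Within a number, FLAG RIP lay between 0.646 and 1.37 CPM in replicate 6, between 7.38 and 14.8 in 7, between 5.17 and 11.1 in 8, between 52.5 and 123 in 9 and between 4.68 and 7.53 in 10. Of 19 FLAG RIP libraries, 18 were above the vector RIP library of their own number. The log2 fold change was 1.24 (SE 0.26, edgeR adjusted p = 0.0464). It was 1.01 (SE 0.29, edgeR adjusted p = 0.524) without replicate 9, where the gene no longer passed. Without the block it was 1.48 (SE 1.04, edgeR adjusted p = 1.00). The input did not pass a test of the same difference, with a log2 fold change of 0.37 (SE 0.41, edgeR unadjusted p = 0.371), and the change in the RIP to input ratio was 0.75 (SE 0.47, unadjusted p = 0.116).

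**Figure D1:**
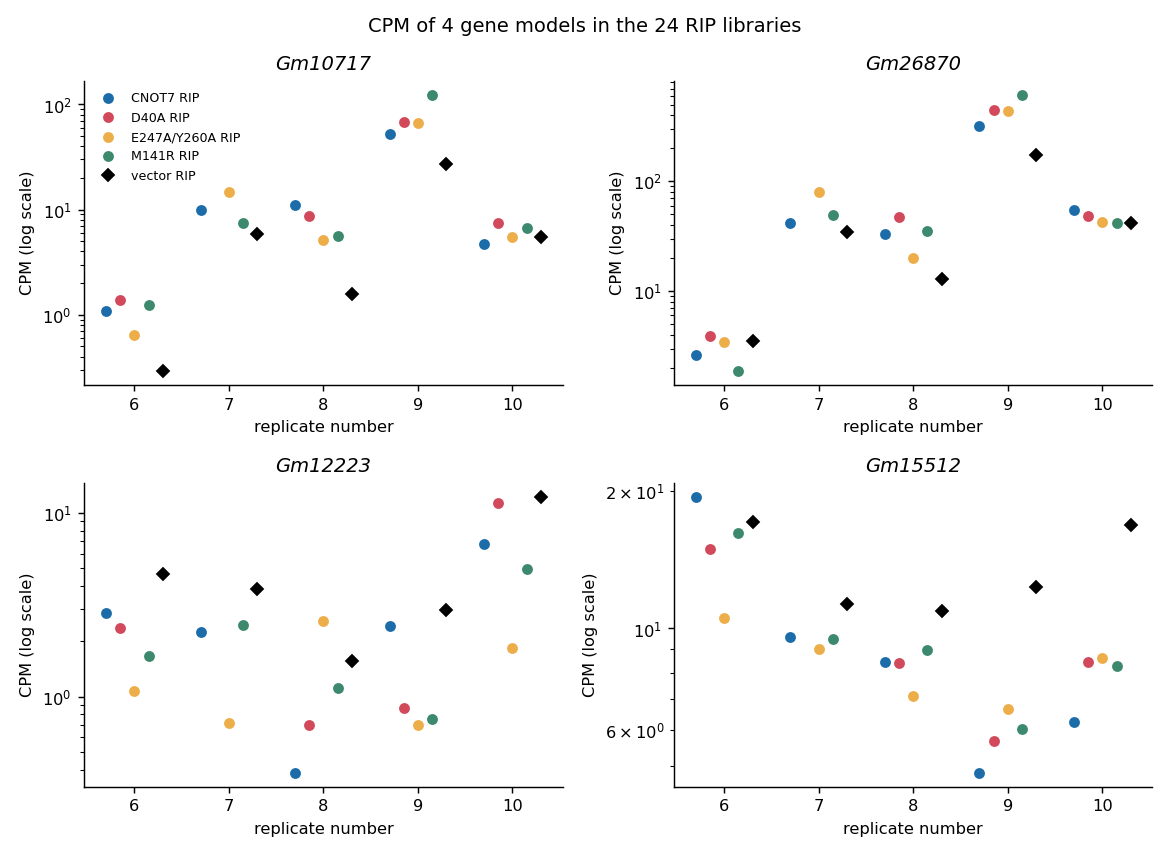
CPM (log axis) of Gm10717, Gm26870, Gm12223 and Gm15512 in each RIP library by replicate number, with FLAG forms and vector drawn as separate points. For Gm10717 18 of 19 FLAG RIP points lie above the vector point of their number and replicate 9 is highest in both groups, while for Gm12223 and Gm15512 18 of 19 lie below it.

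The other tested models of the repeat region lay in the same direction. Of the 10, 4 had too few counts for a test, and all 6 tested had a positive log2 fold change (0.77 to 1.40) and an unadjusted p under 0.05, against 7.11% of all genes tested. They share sequence and cannot be taken as independent. Gm11168 was at 1.40 (SE 0.33) and Gm10719 at 1.30 (SE 0.30), each with an edgeR adjusted p of 0.0629. Gm26870, the most counted, was at 175 CPM in vector RIP 9 and between 3.48 and 41.3 in the others, and ranged from 1.86 to 613 in FLAG RIP with a median of 42.5. Its log2 fold change was 0.77 (SE 0.22, edgeR adjusted p = 0.138), with 16 of 19 libraries above their own vector library. In input, Gm26870 was at 0.50 (SE 0.34, unadjusted p = 0.156), Gm10719 at 0.78 (SE 0.45, unadjusted p = 0.0917), Gm10715 at 0.47 and Gm11168 at 0.31, so these models lay above 0 there too. The RIP to input ratio was 0.13 (unadjusted p = 0.739) for Gm26870, 0.41 for Gm10719, 0.26 for Gm10715 and 1.03 (unadjusted p = 0.0706) for Gm11168. These input and ratio values do not cover Gm10720, which was at 1.22 in RIP (edgeR unadjusted p = 0.0109). Gm21738 on chromosome 14 was at 1.24 (SE 0.34, edgeR adjusted p = 0.135). The printed run was chosen from the leading genes and its holders share sequence, so their common direction is a description. Outside chromosomes 9 and 14, Gm10800 and Gm10801 on chromosome 2 were at 0.44 (unadjusted p = 0.0449) and 0.26 (unadjusted p = 0.220).

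Summed over the 10 chromosome 9 models, vector RIP held 5.51, 51.95, 17.96, 256 and 54.9 CPM in replicates 6 to 10. FLAG RIP held 4.55 to 7.54, 71.1 to 123, 31.7 to 69.6, 496 to 983 and 56.9 to 66.6 CPM. All FLAG libraries of replicates 7, 8, 9 and 10 were above the vector library of their number, and 2 of 4 were in replicate 6. The log2 ratio of the FLAG mean to the vector value was 0.11, 0.78, 1.56, 1.42 and 0.16 in the same order. The level thus moved far more between numbers than between FLAG and vector.

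The gene with the lowest p outside the repeats was Gm17132, an unprocessed pseudogene on chromosome 5 (chr5:127877333-127878490) inside the gene Tmem132d and on its opposite strand. It did not pass (log2 fold change 0.83, SE 0.21, edgeR adjusted p = 0.110), although all 19 FLAG RIP libraries were above the vector library of their number. Vector RIP held 0.871, 8.57, 7.42, 44.4 and 16.8 CPM in replicates 6 to 10, and FLAG RIP 1.24 to 116 with a median of 17.6. It remained at 0.75 (SE 0.25, unadjusted p = 0.00479) without replicate 9. Tmem132d, which spans 651448 bases around it, was at 0.57 (SE 0.21, unadjusted p = 0.0096), and at 0.30 (SE 0.18, unadjusted p = 0.102) without replicate 9.

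Protein-coding genes that span at least 500 kb made up much of the rest of the higher side. Of the 81 genes higher at an unadjusted p under 0.05, 30 spanned at least 500 kb (37.0%), against 74 of all 1139 genes tested (6.5%) and 1 of the 37 lower genes. The median span was 263 kb among the higher genes, 20.7 kb among all genes tested and 14.2 kb among the lower genes. None of the 30 passed the adjusted threshold. The filter on low counts asks for 3.50 CPM in at least 5 RIP libraries of any kind, so with 19 FLAG and 5 vector libraries a gene can enter through FLAG RIP alone. Of the 1139 genes, 66 (5.79%) reached this level in no vector RIP library, 63 of them with a positive log2 fold change, and 0 reached it in no FLAG RIP library. The 66 include 20 of the 81 higher genes, 6 of the 30 long ones and 0 of the 37 lower genes. Among the genes that reached it in a vector RIP library, 24 of 61 higher genes were long, against 66 of 1073 genes tested, 55 of the 66 being positive. Magi2, a synaptic scaffold, was at 0.290, 1.11, 0.390, 6.42 and 0.454 CPM in vector RIP 6 to 10 and at 0.392 to 15.4 (median 1.88) in FLAG RIP, with 18 of 19 libraries above their own vector library. Its log2 fold change was 1.16 (SE 0.30, edgeR adjusted p = 0.110). Ntm, a cell adhesion protein, had 0 counts in vector RIP 6, 8 and 10 and 2 and 10 counts in 7 and 9, against 0 to 78 in FLAG RIP, and a log2 fold change of 1.53 (SE 0.43, edgeR adjusted p = 0.138). Csmd1 was at 1.25, Nkain2 at 1.62, Lsamp, another adhesion protein, at 1.08 and Ptprd, a receptor tyrosine phosphatase, at 1.07. Clstn2, at 1.71, is 1 of the genes that entered through FLAG RIP alone, with at most 4 counts in a vector RIP library. These values rest on few reads, with at most 14 counts of Lsamp, 13 of Csmd1 and 8 of Nkain2 in any vector RIP library.

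Few of these genes could be tested without replicate 9, because the others passed the filter only with its libraries. Of the 30, 4 were tested without it, and all 4 had a positive log2 fold change with no unadjusted p under 0.05. Of all 74 long genes with a test, 63 had a positive log2 fold change, against 54.3% of all genes tested, but 8 of the 63 entered through FLAG RIP alone. Only 24 could be tested without replicate 9, and of these 14 were positive, against 54.2%, with a median of 0.07. Of the 44 genes then higher at an unadjusted p, 0 spanned 500 kb, against 2.23% of all genes tested. Sums over all 228 genes of that span in the table do not depend on the filter. They were 221, 420, 353, 902 and 516 CPM in vector RIP 6 to 10. FLAG RIP held 200.4 to 233, 456 to 718, 378 to 448, 1383 to 2561 and 518 to 584, and was above its own vector library in 3 of 4, 3 of 3, 4 of 4, 4 of 4 and 4 of 4 libraries. The log2 ratio was 0.99 in replicate 9 and between 0.01 and 0.40 in the other numbers.

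**Figure D2:**
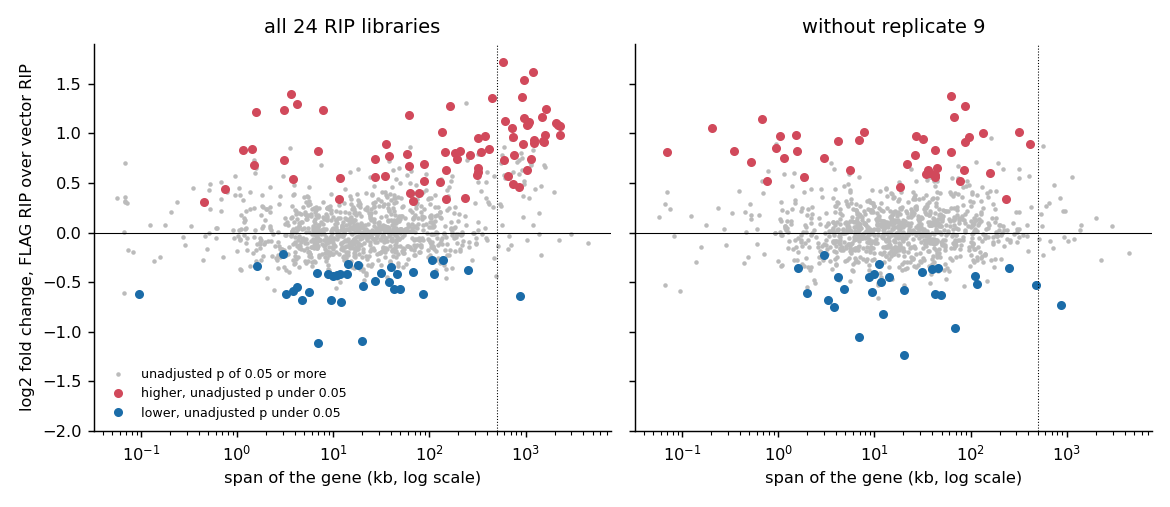
Log2 fold change of FLAG RIP over vector RIP for each tested gene with an annotated span against that span in kb (log axis), with and without replicate 9; red points passed an unadjusted p of 0.05 with a positive value and blue ones with a negative value, grey points did not pass it, and the dotted line marks 500 kb. With replicate 9, 63 of 74 genes to the right of the line lie above 0, and without it 14 of 24 do.

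**Figure D3:**
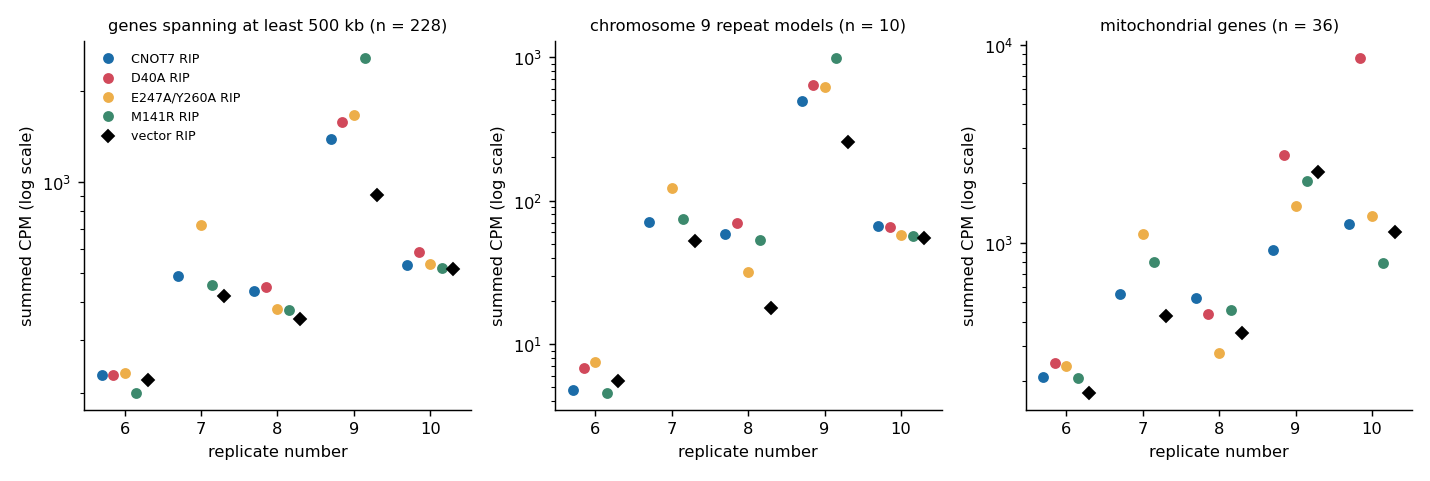
Summed CPM (log axis) in each RIP library by replicate number for the 228 genes spanning at least 500 kb, the 10 repeat models of chromosome 9 and the 36 mitochondrial genes. FLAG libraries of replicate 9 lie above their vector library for the first 2 sums, and 1 of 4 does for the mitochondrial sum.

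Mitochondrial transcripts showed the opposite dependence on replicate 9. The genome of the organelle encodes rRNAs, tRNAs and subunits of the respiratory chain, outside the cytoplasmic mRNA pool on which CCR4-NOT acts. Genes of the same organelle are not independent, so the counts of members below are a description. Of 21 mitochondrial genes tested, 20 had a positive log2 fold change, against 54.3% of all genes (median 0.36, or 0.52 with plain library sizes), and 0 passed even an unadjusted p under 0.05. Without replicate 9, 17 of 18 were positive, against 54.2% of all genes, with a median of 0.76, and 9 of the 18 had an unadjusted p under 0.05, against 44 of all 1074 genes tested (4.1%); 0 passed the adjusted threshold. Among them mt-Co1, a subunit of cytochrome c oxidase, was at 0.98 (SE 0.34, unadjusted p = 0.00667), mt-Nd6, a subunit of complex I, at 0.71 (SE 0.27, unadjusted p = 0.0133) and mt-Rnr2, the large rRNA, at 0.83 (SE 0.34, unadjusted p = 0.0214). The summed CPM of the 36 mitochondrial genes in vector RIP 6 to 10 were 174, 428, 350, 2292 and 1138. The log2 ratio of the FLAG mean to the vector value was 0.37, 0.94, 0.28, -0.33 and 1.39 in the same order. FLAG RIP held 207 to 248 in replicate 6, 550 to 1107 in 7 and 279 to 524 in 8. In replicate 9 FLAG RIP held 924 to 2792, above the vector library in 1 of 4, and in replicate 10 it held 787 to 8568, the highest being D40A. When this D40A library was also left out, 17 of 17 were positive with a median of 0.47 and 10 had an unadjusted p under 0.05, against 40 of all 1066 genes. In the inputs, 27 of 29 tested were positive, against 48.8% of all genes there, with a median of 0.50, and 4 had an unadjusted p under 0.05, against 1.91% of all genes. More organelles in a lysate and more RNA per organelle cannot be told apart here, nor can the number of cells and the RNA in each.

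Genes lower in FLAG RIP were fewer than those higher, and none passed the adjusted threshold. Of the 37 genes lower at an unadjusted p, all 37 were tested without replicate 9, all 37 kept their sign and 24 remained under 0.05 (64.9% of the 37 and 80.0% of the 30 found without it). Of the 81 higher genes, 42 could be tested, all 42 kept their sign, and 16 remained (19.8% of the 81 and 36.4% of the 44). Models antisense to another gene made up 12 of the 37 lower genes (32.4%) and 5 of the 81 higher ones (6.17%), against 293 of all genes tested (25.7%). The kit was directional, but how strand was used in counting is not given in the sources used here, so reads of an antisense model and of the gene opposite cannot be told apart.

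The lowest p among them was that of Gm12223, antisense to Csf2, the gene of the cytokine GM-CSF (chr11:54247600-54254495). Vector RIP held 4.64, 3.87, 1.56, 2.96 and 12.3 CPM in replicates 6 to 10, from 4 to 27 counts, and FLAG RIP 0.384 to 11.3 with a median of 1.85. The ranges overlapped, but 18 of 19 FLAG RIP libraries were below the vector library of their number. The log2 fold change was -1.12 (SE 0.29, edgeR adjusted p = 0.110), or -1.05 (SE 0.30, unadjusted p = 0.00140) without replicate 9. The same gene was at -0.71 in FLAG input against vector input (SE 0.25, unadjusted p = 0.00707), and its RIP to input ratio at -0.48 (unadjusted p = 0.219). Gm11651, antisense to Ace, was at -1.09 in RIP (SE 0.35, unadjusted p = 0.00398), -1.18 in input (SE 0.37, unadjusted p = 0.00361) and 0.04 in the ratio. Only 11 of 19 FLAG RIP libraries were below their own vector library, and the FLAG mean was above it in 2 of 5 numbers. Vector RIP 10 and 6 were high, at 28.2 and 9.00 CPM, and the other vector RIP libraries held 0.781 to 4.97.

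Gm15512, antisense to Arhgap22, did not show this in the input (-0.14, SE 0.18). It was at 17.1, 11.3, 10.9, 12.3 and 16.8 CPM in vector RIP 6 to 10 and at 4.83 to 19.4 (median 8.47) in FLAG RIP, 18 of 19 libraries being below their own vector library. Its log2 fold change was -0.55 (SE 0.15, edgeR adjusted p = 0.135). Osbpl10, a lipid transfer protein of the oxysterol-binding family, was at -0.38 (SE 0.11, 18 of 19 below), with -0.12 (SE 0.42) in input. Gm26573 was at -0.64 (SE 0.20, 16 of 19 below; input -0.16, SE 0.20) and Gm16568, antisense to Cep295, at -0.68 (SE 0.22, 17 of 19 below; input -0.03, SE 0.14). Peak1os, antisense to Peak1, was at -0.44 (SE 0.13, 17 of 19 below), but its input was at -0.38 (SE 0.21, unadjusted p = 0.0866) and its RIP to input ratio at -0.17 (unadjusted p = 0.549). The most counted gene of all RIP libraries, ENSMUSG00000045999, was at -0.17 (SE 0.05, edgeR adjusted p = 0.204), or -0.03 with plain library sizes.

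This last gene belongs to a set of 13 that held 95.4% to 98.0% of all counts in FLAG RIP and 97.2% to 98.2% in vector RIP. A FLAG RIP library held 1305627 to 10719137 counts and a vector RIP library 2219466 to 4058800, with medians of 2732681 and 3193282. Only 35265 to 377943 counts of a FLAG RIP library and 56269 to 81280 of a vector RIP library fell outside the 13. As a result 25387 of 26899 genes had a median of at most 3 counts over the RIP libraries. In input, 4 of 8 epithelial markers (Epcam, Krt7, Cdh1 and Cldn7) had counts in all 24 libraries, with medians of 4.5 to 15 counts, and the other 4 (Cldn4, Krt8, Krt18 and Krt19) in 14 to 21 libraries, with medians of 1 to 3. Of 12 markers of other cell types, 9 had a median of 0 counts and at most 3 in any library. Among them were Itgam with a count in 10 libraries, the endothelial marker Cdh5 in 7 (at most 2 counts), Ptprc in 6 and Cd3e and Acta1 in 1 each. The other 3 were Pecam1, also an endothelial marker, with a median of 4.5 counts and up to 11, and Gfap and Rbfox3, markers of neural cells, with up to 9 and 14. Pecam1 was thus above 4 of the epithelial markers in median count, and the part of such RNA in the comparison was not tested.

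The share of counts outside the 13 genes did differ between the groups. It was 2.65% ± 0.73 (SD, n = 19) in FLAG RIP and 2.20% ± 0.49 (SD, n = 5) in vector RIP, a difference of 0.438 percentage points within replicate numbers (two-sided exact permutation of the vector label within numbers, p = 0.0076, adjusted p = 0.0101 over 4 measures). In replicates 6, 7, 8 and 9 every FLAG RIP library was above the vector library, and in replicate 10 2 of 4 were. After thinning each library to 1305627 counts, 5798 ± 2360 genes had a count in FLAG RIP and 4492 ± 1596 in vector RIP, 1292 more within numbers (exact permutation p = 0.0008, adjusted p = 0.0032). Thinned to 35265 counts outside the 13 genes, the values were 5733 ± 1552 and 4905 ± 1218, 833 more (exact permutation p = 0.0032, adjusted p = 0.0064). The share of the most counted gene was 60.9% ± 2.57 and 62.1% ± 3.06, a difference of -1.26 points within numbers (exact permutation p = 0.038, adjusted p = 0.038). For this share 0 of 4 FLAG RIP libraries were above the vector library in replicates 6, 9 and 10, but 3 of 3 were in 7 and 2 of 4 in 8. These measures were chosen after the values had been seen. Without replicate 9 the difference in share was 0.288 points (exact permutation p = 0.022, adjusted p = 0.032), and in genes after the first thinning 801 (exact permutation p = 0.004, adjusted p = 0.016). The share of the most counted gene then gave p = 0.198 in the same exact test. FLAG RIP libraries thus held a slightly larger and more diverse remainder. The main tests of single genes used TMM factors, which take up a shift common to most genes, so their 1 call does not measure this difference. With plain library sizes 7 genes were higher and 0 lower, and 167 and 9 at an unadjusted p. Without replicate 9 these were 0 and 0, and 104 and 9.

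**Figure D4:**
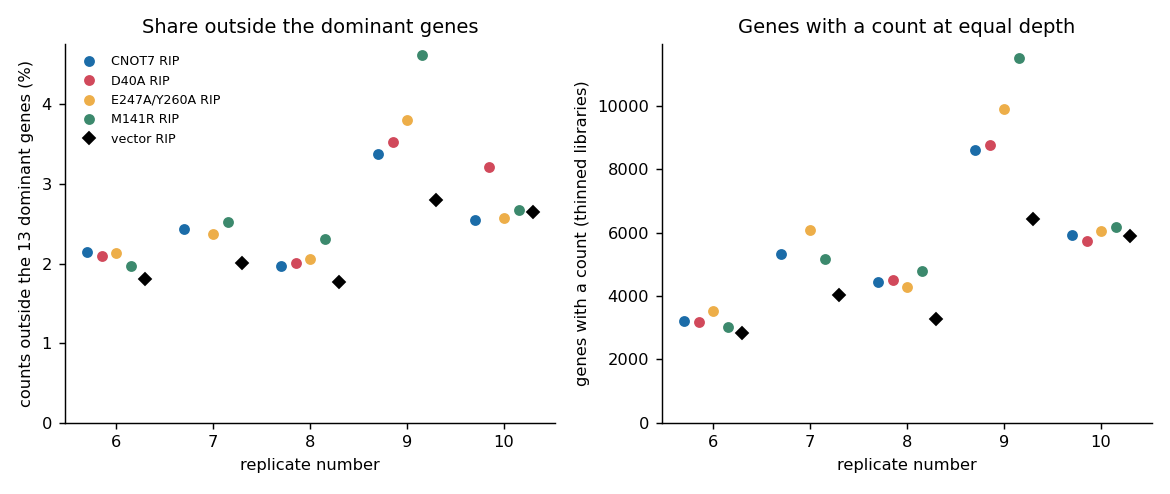
Share of counts outside the 13 dominant genes (percent) and number of genes with a count after thinning to 1305627 counts, for each RIP library by replicate number. FLAG libraries lie above the vector library in every number but replicate 10 for the share, where 2 of 4 do, and 3 of 4 do for the genes.

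The study's own candidate targets were barely measured in the precipitates. The list of 149 transcripts that it drew from these RIP libraries and from arrays on which they ran opposite to Cnot7 was chosen on these samples, so its direction is not independent evidence. In the paper the RIP criterion was enrichment over input and over control in cells overexpressing FLAG-CNOT7. Here the pool also held the mutant forms and was compared with vector RIP alone. Of the 149, 5 were tested. All 5 had a positive log2 fold change, but Sorbs2 and Polr1e reached the level of the filter in no vector RIP library and so entered through FLAG RIP alone. The tested members therefore give no measure of the list. None of them passed the adjusted threshold, and 2 had an unadjusted p under 0.05, where 7.11% of all genes tested were higher. Tenm2, a teneurin, was at 0.93 (SE 0.35, unadjusted p = 0.0132), with 0 to 9 counts in vector RIP and 0 to 119 in FLAG RIP. Sorbs2, a cytoskeletal adaptor, was at 0.95 (SE 0.41, unadjusted p = 0.0269), Polr1e, a subunit of RNA polymerase I, at 0.64 (SE 0.32, unadjusted p = 0.0569) and Brinp3 at 0.30 (SE 0.28). Without replicate 9, 4 were tested, 4 were positive and 0 had an unadjusted p under 0.05. Of the 71 transcripts in this list with sites for CPEB, CPSF and Nanos, 4 were tested, Sorbs2 and Polr1e among them, with 2 under an unadjusted p of 0.05, or 3 tested and 0 under it without replicate 9.

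Lists that the study took from arrays had few tested members as well. Not every array transcript could be matched to a gene of the count table. Of those that ran opposite to Cnot7, 434 were matched and 19 of these were tested, with a median of 0.05 and 1 higher at an unadjusted p. Of those that ran with it, 264 were matched and 11 tested, with a median of 0.00, 1 higher and 1 lower. Of 293 matched genes with the 3 sites that ran opposite to Cnot7, 16 were tested, with a median of -0.02 and 1 higher. The same threshold was passed by 7.11% of all genes tested in the higher and 3.25% in the lower direction, near the shares of these lists. None of these genes passed the adjusted threshold. The higher gene of both the list of 434 and the list of 293 was Slc38a6, of the amino acid transporter family, at 0.32 (SE 0.14, unadjusted p = 0.0311), and the lower one of the 264 was Dvl2, a mediator of Wnt signalling, at -0.42 (SE 0.15, unadjusted p = 0.00762).

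Transcripts of the CCR4-NOT complex itself were too sparse to enter the fit, with 0 of 12 subunits tested. Cnot7 (ENSMUSG00000031601, chr8:40492540-40515847) had 6, 9, 5, 5 and 2 counts in vector RIP 6 to 10 and 0 to 18 in FLAG RIP (median 6). Its log2 CPM was 1.34 ± 0.55 (SD, n = 19) and 1.31 ± 0.41 (SD, n = 5), a difference of 0.04 within numbers (exact permutation p = 0.869, adjusted p = 0.936 over 14 transcripts). The construct was human, so this mouse gene does not check it. Cnot6l, a second deadenylase of the complex, differed by 0.53 (exact permutation p = 0.0472, adjusted p = 0.428) and Cnot1, the scaffold, by 0.48 (exact permutation p = 0.0612, adjusted p = 0.428). Among 28 adaptors 1 was tested, Cpeb3, which binds cytoplasmic polyadenylation elements, at -0.01 (SE 0.21), or 0.13 with plain library sizes. Tob1 had at most 1 count in any RIP library.

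Other classes of RNA gave the following values. Of 82 ribosomal protein genes 2 were tested, with 0 positive and Rps2 at -0.27 (SE 0.17). Of 20 decapping and P-body factors, which act after deadenylation, 1 was tested, Edc3 at 0.00 (SE 0.22), or 0.15 with plain library sizes. Of 10 structural noncoding RNAs 2 were tested, Malat1 and Rmrp. Rn7s1 and Rn7s2 of this list had too few counts for the test. With no filter on low counts they were called lower, at -5.31 and -5.28 (edgeR adjusted p = 3.28e-10 for each). Malat1, a nuclear noncoding RNA, was at 0.83 (SE 0.39, unadjusted p = 0.0423) and at 0.93 (SE 0.42, unadjusted p = 0.0334) without replicate 9, and Rmrp, the RNA of RNase MRP, was at -0.04 (SE 0.24), or 0.08 with plain library sizes. None of the 17 poly(A) and deadenylation factors, 29 short-lived mRNAs, 46 histone genes and 16 snoRNAs had enough counts for a test. These counts could not show a difference at this depth and do not say that one is absent.

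Pooling puts the 4 forms together, and each was also set against the vector in 1 fit. A test of differences among the 4 forms called 0 of 1139 genes (0.0%, with 65 or 5.71% at an unadjusted p). Against the vector, CNOT7, D40A and E247A/Y260A RIP each had 0 genes higher and 0 lower (0.0%), with 23 and 27, 82 and 38, and 67 and 37 at an unadjusted p. M141R RIP had 5 higher (0.439%) and 0 lower, with 81 and 39 at an unadjusted p. The 5 were Gm10719 at 1.73 (SE 0.32, edgeR adjusted p = 0.00777), Gm10717 at 1.45 (SE 0.30, edgeR adjusted p = 0.0206), Gm11168 at 1.71 (SE 0.36, edgeR adjusted p = 0.0206), Csmd1 at 1.62 (SE 0.37, edgeR adjusted p = 0.0356) and Gm21738 at 1.58 (SE 0.37, edgeR adjusted p = 0.0436). Without replicate 9 M141R RIP had 0 higher (0.0%). Of the 5, Csmd1, Gm11168 and Gm21738 then had too few counts for a test, and Gm10719 was at 0.74 (SE 0.45) and Gm10717 at 0.72 (SE 0.38), each with an edgeR adjusted p of 0.975. For Gm10717 the other forms were at 1.07 (CNOT7), 1.26 (D40A) and 1.15 (E247A/Y260A), each with an SE between 0.32 and 0.33, and the test among forms gave an unadjusted p of 0.559. The same test gave an unadjusted p of 0.0288 for Csmd1 (0.60 in D40A against 1.62 in M141R; edgeR adjusted p = 0.750), 0.0515 for Gm10719, 0.156 for Gm21738 and 0.217 for Gm11168. Without the replicate block M141R RIP had 0 higher and 0 lower, with 3 and 11 at an unadjusted p.

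Without replicate 9, D40A RIP had 6 genes higher (0.559%) and 0 lower, all 6 mitochondrial. They were mt-Nd6 at 1.42 (SE 0.27, edgeR adjusted p = 0.0158), and mt-Co1, mt-Co2, mt-Nd5, mt-Rnr1 and mt-Ts1, at 1.14 to 2.27, each with an edgeR adjusted p of 0.0481. Without the block, 0 were higher and 0 lower, with 10 and 11 at an unadjusted p. Without the D40A library of replicate 10 as well, mt-Nd6 was at 0.73 (SE 0.23, edgeR adjusted p = 0.816) and D40A RIP had 0 higher and 0 lower, with 30 and 26 at an unadjusted p.

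The same contrast in the inputs and in the RIP to input ratio called no gene. In FLAG input against vector input, 0 of 3622 genes were higher and 0 lower (0.0% each), with 69 (1.91%) and 54 (1.49%) at an unadjusted p, and DESeq2 also called 0 and 0 (73 and 52). In the ratio, 0 of 6474 were higher and 0 lower (0.0% each), with 340 (5.25%) and 59 (0.911%) at an unadjusted p and 61.7% of the values above 0. DESeq2 called 0 higher and 1 lower in the ratio. Totals in input were 337861 to 826768 counts, lower than in RIP but spread over 9983 to 16757 genes with a count.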

How the data were processed

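Native RIP and input libraries were prepared with a directional kit and sequenced on a HiSeq 2500. The authors deposited 1 table of whole-number counts per gene, without normalization, for 26899 genes. The submitters' processing notes name BWA, HTSeq and mm9, without versions. The strand setting of counting is not given in the sources used here. All 48 columns of the table matched a sample, leaving 0 unmatched. Gene types, positions and sequences came from GENCODE M21 (GRCm38) by Ensembl identifier. Of the identifiers, 344 were not found there, and no coordinates were converted. The annotation used for counting is not given in the sources used here, so spans, antisense classes and repeat models are those of M21 and may differ from the models counted.

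Counts were filtered with filterByExpr (minimum count 10), scaled by TMM and fitted with edgeR 4.0.16 (R 4.3.3) by the quasi-likelihood test. The term was FLAG against vector and the replicate number was a block, with Benjamini-Hochberg adjustment over all genes tested and a threshold of 0.05. The numbers were taken to pair samples because deviations of FLAG RIP and vector RIP from their group means correlated in all 5 numbers (r of 0.81, 0.29, 0.44, 0.78 and 0.72). SE is the log2 fold change divided by the root of the F statistic. CPM are TMM-scaled, and log2 CPM used a prior count of 2. The RIP to input ratio was an interaction over all 48 libraries. Alternatives were DESeq2 1.42.0, limma 3.58.1, other filters and scalings, and single libraries left out. The code was tested on simulated data. No pair of libraries of a group agreed within sampling noise (the smallest ratio of chi-square to its degrees of freedom was 4.98). Exact permutations moved the vector label within numbers (2500 arrangements, smallest p 0.0004; 500 and 0.002 without replicate 9).

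The members and lists were chosen with earlier results of these data known. Named genes were those past the adjusted threshold and otherwise the 8 lowest unadjusted p in each direction, CCR4-NOT subunits and adaptors, and up to 4 tested members of each list. The repeat models, long genes and single forms were added after the values were seen. The study's arrays and survival data were not analysed here.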

Additional observations from a re-analysis of the deposited data

Results flagged for a closer look

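Within groups of 4 or 5 libraries, 31 sets of values were searched for a library that lies apart from the others by Dixon's criterion. It was met in 9 sets. The genes searched had been chosen by their p in this comparison, and the repeat models among them share sequence. The sets are therefore not independent, and the 9 were not set against a chance rate. Of the 9, 8 belong to replicate 9. The M141R RIP library of replicate 9 held 4.61% of its counts outside the 13 dominant genes, and the other M141R RIP libraries 1.97% to 2.67%. The vector RIP library of replicate 9 held 27.2 CPM of Gm10717 (others 0.290 to 5.80), 14.3 of Gm10719 (0.290 to 3.87), 11.8 of Gm11168 (0.290 to 1.66), 12.3 of Gm21738 (0.290 to 1.82) and 175 of Gm26870 (3.48 to 41.3). It also held 6.42 CPM of Magi2 (0.290 to 1.11) and 4.94 of Ntm (0 to 0.553). The vector RIP library of replicate 10 held 12.3 CPM of Gm12223 (1.56 to 4.64).

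The same criterion applied to the 16 genes with the lowest p in each of the 4 FLAG forms found a library apart in 29 of 64 sets, 27 of them in replicate 9 and 2 in replicate 10. Replicate 9 was therefore high in both groups for the genes that led the higher side. The part of this library set in the pooled differences was measured only by leaving it out.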

How the results depend on the processing

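Gm10717 was positive in 44 of 44 alternatives (1.01 to 1.48) and passed in 23, with p from 0.000377 in the test without adjustment to an adjusted p of 1.00 without the replicate block. The 23 include that test without adjustment. They also include the limit of a log2 fold change of at least 1, which repeats the main fit. The count of higher genes, 1, became 0 without the replicate block (4 higher and 13 lower at an unadjusted p), 0 without a filter on low counts, 0 with at least 10 counts in every library, 0 with the mean of the 4 forms and 0 with all 48 libraries in the fit. It became 7 with plain library sizes, 3 with a minimum count of 3, 3 without the 13 dominant genes, 2 with limma voom and 62 in a per-gene test without adjustment. The count of lower genes, 0, became 3 without a filter (Gm11651, Rn7s1 and Rn7s2), 1 with a minimum count of 3, 1 with voom and 37 without adjustment. Without one form, 2 (CNOT7), 0 (D40A), 0 (E247A/Y260A) and 3 (M141R) genes were higher. Leaving out single libraries gave 0 to 7 higher and 0 to 1 lower, with 7 and 1 without vector RIP 10 and 5 higher without CNOT7 RIP 7; leaving out a replicate number gave 0 to 1 in each direction, the lower one being ENSMUSG00000045999 without replicate 10. Without replicate 9, no filter gave 1 higher and 3 lower and a minimum count of 3 gave 1 lower. Without the block, that comparison had 8 and 11 genes at an unadjusted p. In the inputs, no filter gave 13 higher and 1 lower. In the ratio, DESeq2 gave 1 lower and no filter 2 lower. No named gene that passed changed sign, and differences among forms stayed at 0. Leaving out the block ended the call of Gm10717, the 5 calls in M141R RIP and the 6 in D40A RIP without replicate 9. The causes were not tested. Depth limits all of this: 1139 of 26899 genes reached the filter.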
